A study of Mus musculus with 2 samples.

Results

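The neuregulins and the ErbB receptors are a family of secreted or membrane-held growth factors and the receptor tyrosine kinases that bind them. Of 55536 annotated genes, 8 were taken by symbol. They are the receptors Egfr, Erbb2, Erbb3 and Erbb4 and the ligands Nrg1, Nrg2, Nrg4 and Hbegf. Levels were read in total RNA of heart tissue from female mice of the F1 strain B6CASTF1/J at 4 days of age, in 2 libraries that form a single group. Per the labels, each library was stranded, depleted of ribosomal RNA, made from 300 ng of RNA and given ERCC spike-ins, and the labels name no other treatment or allele. With 1 group there is no contrast, the smallest two-sided permutation p for 2 libraries is 0.5, and no p-value is given.

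ErbB receptors work in pairs. ErbB2 has no known ligand of its own and serves as the favoured partner of the others, ErbB3 has a weak kinase, and ErbB4 and EGFR bind ligands and signal through their own kinases. In the mouse heart, neuregulin 1 made by endocardial and endothelial cells acts on ErbB4 paired with ErbB2 in cardiomyocytes, and this signal is needed for the ventricle to form its trabeculae. HB-EGF, the product of Hbegf, binds EGFR and ErbB4, and all ligands here are made as membrane precursors that proteases can release.

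Sequencing depth, as summed expected counts, was 36175363 in replicate 1 and 32509660 in replicate 2. All 7 cardiomyocyte markers were expressed, with sums of 29748.5 and 29819.1 TPM (transcripts scaled to a common total, a level corrected for transcript length). The libraries stood apart in blood and skeletal muscle genes. Erythroid genes summed to 257631 and 2932 counts and skeletal muscle genes to 2256 and 281 counts in replicates 1 and 2. The 6 macrophage markers (33.3 and 47.5 TPM) and the 6 fibroblast markers (1500.3 and 1807 TPM) were higher in replicate 2. The 6 smooth muscle and pericyte markers summed to 719 and 655 TPM, most of it Acta2 (551 and 465 TPM), and the other 5 were higher in replicate 2.

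Transcripts of all 4 receptors and of the ligands Hbegf and Nrg1 were measured well above 0 in both libraries, while Nrg2 and Nrg4 were near the lower end of what was measured. A TPM of at least 1 in both libraries was reached by 6 of the 8 members. The same threshold was passed by 24.1% of all annotated genes and by 54.2% of protein-coding genes. The 4 receptors summed to 31.6 TPM in replicate 1 and 30.2 TPM in replicate 2, against 12.6 and 10.8 TPM for the 4 ligands. The log2 ratio of receptors over ligands was 1.33 in replicate 1 and 1.48 in replicate 2, with a mean of 1.41 ± 0.11 (SD, n = 2), which is 2.65-fold. Erbb4 and Erbb2 held 77.2% and 77.6% of the receptor sum in replicates 1 and 2, and Hbegf and Nrg1 held 92.7% of the ligand sum in each.

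**Figure D1:**
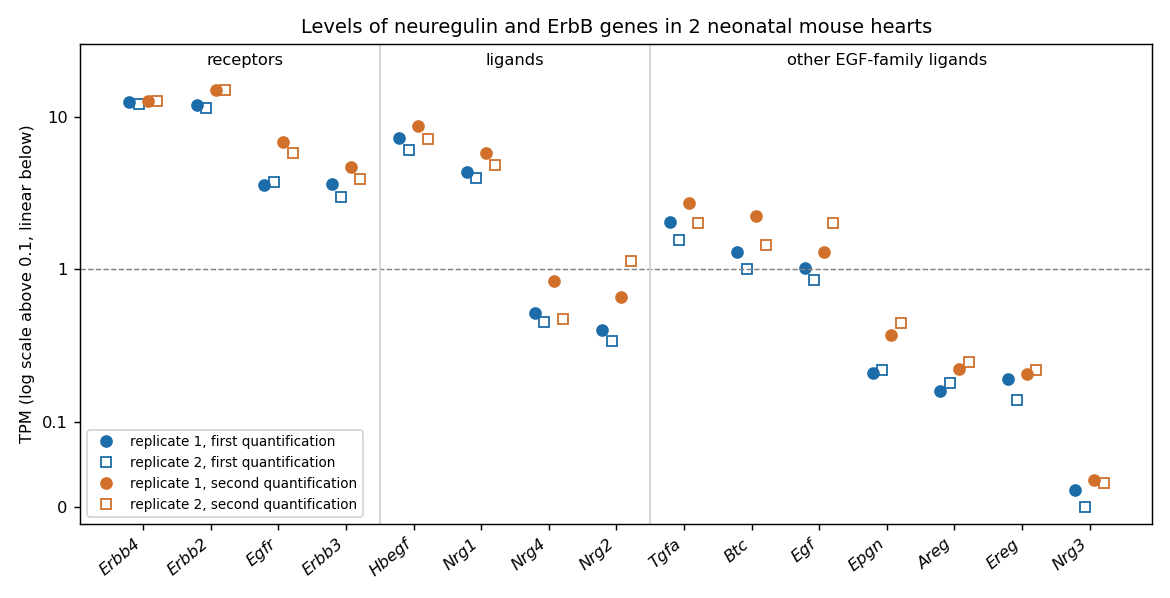
TPM of the 8 members and of 7 other EGF-family ligands (vertical axis, logarithmic above 0.1 and linear below), with filled circles for replicate 1, open squares for replicate 2, blue for the first quantification and orange for the second. Erbb4 and Erbb2 stand highest, at 11.4 to 12.4 TPM in the first quantification, Nrg4 and Nrg2 lie under the dashed line at 1 TPM there, and Nrg3 is at 0.02 and 0 TPM.

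Erbb4, the neuregulin receptor of cardiomyocytes, is a long gene on the minus strand of mm10 chromosome 1 (68032186 to 69108059), with 5 annotated transcripts. It had 12.4 TPM in replicate 1 and 12.1 TPM in replicate 2, from 2181 and 1924 counts. The libraries were close, with a mean of 12.3 ± 0.240 TPM (SD, n = 2). That level exceeded the mean TPM of 49.1% of the 11948 protein-coding genes at a TPM of at least 1. Thus the highest member of the family stood near the middle of the expressed protein-coding genes. The locus also holds 8 other annotated genes on the same strand, none above 38 counts in either library.

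Erbb2, the receptor without a known ligand, lies on the plus strand of chromosome 11 (98412470 to 98437716). It had 11.97 and 11.35 TPM in replicates 1 and 2, from 1558 and 1324 counts. Its mean of 11.7 ± 0.438 TPM was nearly that of its partner Erbb4. Within a library Erbb4 over Erbb2 was 1.04-fold in replicate 1 and 1.07-fold in replicate 2, and the smaller of these did not exceed the difference of Erbb2 between the libraries. In the second quantification, a further table of transcript estimates that the authors deposited, Erbb2 was the higher of the pair, at 14.9 TPM in each library against 12.7 TPM for Erbb4 in each.

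Egfr, the receptor of EGF, TGF-alpha and HB-EGF, lies on the plus strand of chromosome 11 (16752203 to 16918158). It had 3.56 TPM in replicate 1 and 3.76 TPM in replicate 2, from 557 and 533 counts. Erbb3, the kinase-weak receptor of the neuregulins, lies on the minus strand of chromosome 10 (128567523 to 128589652) and had 3.64 and 3.00 TPM in replicates 1 and 2, from 605 and 436 counts. The ranges of Egfr and Erbb3 overlapped, with Erbb3 higher in replicate 1 and Egfr higher in replicate 2. Erbb4 stood 3.41-fold and 4.03-fold above Erbb3 in replicates 1 and 2, and Erbb2 stood 3.29-fold and 3.78-fold above it.

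Among the ligands Hbegf was highest. It lies on the minus strand of chromosome 18 (36504927 to 36515805) and had 7.25 TPM in replicate 1 and 6.08 TPM in replicate 2, from 465 and 344 counts. Nrg1, the endothelial ligand of ErbB4, lies on the minus strand of chromosome 8 (31814551 to 32884029), has 18 annotated transcripts, and had 4.38 and 3.95 TPM from 377 and 297 counts. Hbegf exceeded Nrg1 by 1.66-fold in replicate 1 and by 1.54-fold in replicate 2. The between-library difference of Hbegf was smaller than either of these ratios.

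Nrg4, a ligand of ErbB4, and Nrg2, a ligand of ErbB3 and ErbB4, rested on few reads. Nrg4 (chromosome 9, 55220222 to 55326844, minus strand) had 17 counts in replicate 1 (exact 95% Poisson interval 9.90 to 27.2) and 11 counts in replicate 2 (5.49 to 19.7), or 0.52 and 0.45 TPM. Nrg2 (chromosome 18, 36017652 to 36197380, minus strand) also had 17 counts in replicate 1 and had 20 counts in replicate 2 (12.2 to 30.9), or 0.40 and 0.34 TPM. The intervals, which cover counting error only, overlap between the genes and between the libraries. Nrg1 stood 8.42-fold and 8.78-fold above Nrg4 in replicates 1 and 2, and 4.14-fold and 3.90-fold by the deposited posterior mean TPM. On the opposite strand the end of Nrg4 overlaps Fbxo22 (55220222 to 55224433), which had 803 and 741 counts. The end of Erbb2 overlaps Mien1, which had 378 and 330 counts, by a few bases only (98437708 to 98437716). The libraries are stranded per the labels, but the strand setting of the counting is not given in the sources used here.

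In the order of mean TPM, Erbb4 was followed by Erbb2, Hbegf, Nrg1, Egfr, Erbb3, Nrg4 and Nrg2. Of the 7 pairs of neighbours, 4 were separated, meaning that both values of the higher gene exceeded both of the lower and that the smaller within-library ratio exceeded both genes' own between-library differences. The separated pairs were Erbb2 over Hbegf, Hbegf over Nrg1, Erbb3 over Nrg4 and Nrg4 over Nrg2. The first of these had ratios of 1.65-fold and 1.87-fold, and Erbb3 over Nrg4 had log2 ratios of 2.81 and 2.74. Nrg4 over Nrg2, at 1.30-fold and 1.32-fold, passed this rule by TPM although the counting intervals of the genes overlap. In the second quantification their ranges overlapped, with 0.834 and 0.470 TPM for Nrg4 in replicates 1 and 2 against 0.658 and 1.14 TPM for Nrg2, so Nrg2 was higher in replicate 2 alone. Erbb4 from Erbb2, Nrg1 from Egfr and Egfr from Erbb3 were not separated.

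Part of this order depends on the length by which reads are divided. TPM divides by an effective length averaged over the transcripts called in a gene, which for Erbb4 was 6250 and 6480 nt in replicates 1 and 2 while its longest annotated transcript has 12037 nt. Egfr was likewise divided by 5570 and 5781 nt, against 10208 nt in its longest transcript. Dividing instead by the longest transcript, a scale added after the data were seen, gave 8.64 and 8.17 CPM per kilobase for Erbb2 (CPM, counts scaled to the library total), against 5.04 and 4.94 for Erbb4. On that scale Erbb2 exceeded Erbb4 by 1.72-fold and 1.65-fold, a separated pair, and Erbb3 moved from place 6 to place 4. Receptors still exceeded ligands there, by 1.48 on the log2 scale.

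**Figure D2:**
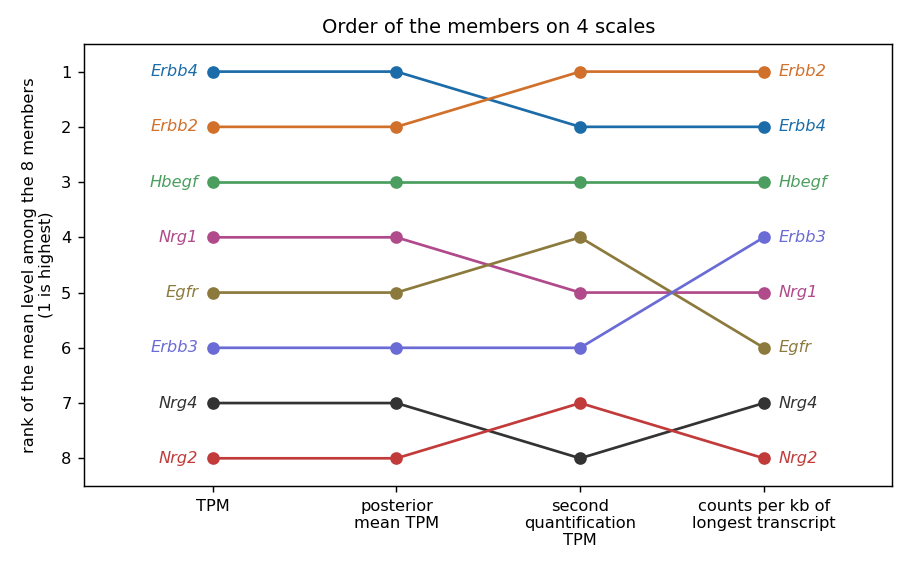
Rank of each member's mean level (vertical axis, 1 is highest) on 4 scales along the horizontal axis, with 1 line a gene. Erbb4 leads by TPM and posterior mean TPM and is second to Erbb2 on the other scales, Hbegf holds place 3 throughout, and Erbb3 holds place 6 on 3 scales and place 4 per kilobase of the longest transcript.

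Against protein-coding genes in general, the second quantification shifted some members apart. Over 11917 protein-coding genes at a TPM of at least 1, its TPM was higher by a median of 0.38 on the log2 scale (quartiles 0.27 and 0.55). Erbb2, Erbb3 and Nrg1 moved with that median, at 0.36, 0.37 and 0.35. Erbb4 moved by 0.05 and Hbegf by 0.25, both below the lower quartile. Egfr moved by 0.79 and Nrg2, which rests on few reads, by 1.28, both above the upper quartile, and Nrg4 moved by 0.43. For Nrg1 and Nrg4 the deposited TPM lay below its own deposited interval in both libraries, at 4.38 TPM against 4.39 to 6.03 TPM for Nrg1 in replicate 1 and at 0.52 TPM against 0.726 to 1.85 TPM for Nrg4. A TPM outside its interval in both libraries was found for 2.39% of the protein-coding genes at a TPM of at least 1. That set holds Nrg1 but not Nrg4, for which no like share is given. The deposited posterior mean TPM was higher for both genes, at 5.18 and 4.84 TPM for Nrg1 and at 1.25 and 1.24 TPM for Nrg4 in replicates 1 and 2.

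Erbb4 transcripts differ at 2 sites known to change what the receptor does. At the juxtamembrane site, an exon in the JM-a form carries the region that the protease ADAM17 cuts, and a shorter exon takes its place in the JM-b form, which is not cut. At the cytoplasmic site, the CYT-1 form has an extra exon that carries a docking site for phosphoinositide 3-kinase, and CYT-2 lacks it. The alternative exons are printed here because the 2 pairs of forms are told apart by them alone. Sequences are those of GENCODE M21 transcripts (mm10, minus strand), 5′ to 3′, with the exon in capitals and 15 bases of each neighbouring exon in lower case. The exons lie at chr1:68290243-68290317 (JM-a, 75 nt), chr1:68290439-68290483 (JM-b, 45 nt) and chr1:68043908-68043955 (CYT-1, 48 nt), and the CYT-2 line shows the 2 flanks joined directly.
Erbb4 JM-a: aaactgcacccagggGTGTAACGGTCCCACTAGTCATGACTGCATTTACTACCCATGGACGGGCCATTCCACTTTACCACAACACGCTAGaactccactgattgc
Erbb4 JM-b: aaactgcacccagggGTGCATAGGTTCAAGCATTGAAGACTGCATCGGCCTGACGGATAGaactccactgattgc
Erbb4 CYT-1: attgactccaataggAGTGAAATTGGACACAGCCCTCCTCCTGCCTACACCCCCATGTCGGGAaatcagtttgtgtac
Erbb4 CYT-2: attgactccaataggaatcagtttgtgtac

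The JM-a and JM-b exons are 121 nt apart in the genome and share both neighbours, and each keeps the reading frame, with lengths of 25 and 15 codons. Transcripts with the JM-b exon took 6.79 TPM in replicate 1 and 6.16 TPM in replicate 2, and those with the JM-a exon took 5.36 and 5.52 TPM. The JM-b form was thus 55.9% and 52.7% of the TPM that could be classed, a mean of 54.3% ± 2.22 (SD, n = 2). In the second quantification it was 46.1% and 41.3%, so which form led depended on the quantification. Nearly all of the JM-b level came from Erbb4-205, a model of 2196 nt whose 3′ end is missing in the annotation, with 385 and 302 counts. No annotated JM-b transcript reaches the cytoplasmic exons, so reads from there could be given only to JM-a transcripts. By counts, which are not corrected for length, the JM-b transcripts held 386 and 303 against 1790 and 1614 for JM-a.

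At the cytoplasmic site the exon-lacking CYT-2 form led in both libraries and both quantifications. Erbb4-202, which is JM-a and CYT-2, had 4.58 and 5.03 TPM in replicates 1 and 2. Erbb4-201, which is JM-a and CYT-1, had 0.78 and 0.49 TPM. The CYT-1 form was 14.6% and 8.88% of the classed TPM, a mean of 11.7% ± 4.01 (SD, n = 2), and 10.2% and 8.76% in the second quantification. The deposited posterior SD of the counts of Erbb4-201 was 22.2% and 32.6% of the count in replicates 1 and 2, so the assignment itself is uncertain at that level. The classed transcripts held 43.1% and 45.7% of the gene's TPM, since Erbb4-205 ends before this site.

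Nrg1 transcripts also fall into known forms. Type I forms begin with an exon that leads into an immunoglobulin-like domain, type III forms begin with an exon for a cysteine-rich domain that spans the membrane, and type II forms begin far upstream. Within the EGF-like domain, which binds the receptor, an alpha or a beta exon supplies the last part, and beta forms bind ErbB receptors more tightly. These exons are printed because they mark the forms compared. They lie at chr8:31837670-31837728 (beta, 59 nt) and chr8:31838261-31838328 (alpha, 68 nt) on the minus strand, in capitals as above, with the neighbouring exons of Nrg1-203 (beta) and Nrg1-213 (alpha) in lower case.
Nrg1 beta: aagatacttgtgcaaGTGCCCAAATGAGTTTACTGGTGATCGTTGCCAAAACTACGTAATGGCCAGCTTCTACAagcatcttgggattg
Nrg1 alpha: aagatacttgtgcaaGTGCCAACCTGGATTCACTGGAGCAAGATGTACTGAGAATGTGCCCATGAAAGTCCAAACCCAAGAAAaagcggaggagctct

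Transcripts with the type I start took 3.95 TPM in replicate 1 and 3.21 TPM in replicate 2. Those with the type III start took 0.23 and 0.41 TPM. Of the type III TPM, 0.23 and 0.26 came from Nrg1-204, a transcript with a retained intron that rested on 8.9 and 8.92 counts. In replicate 1 of the second quantification, 0.62 of the 1.29 type III TPM came from Nrg1-208, whose start and end are missing in the annotation. Type II transcripts were listed at 0 in both libraries and both quantifications. Type I was 94.5% and 88.7% of the classed TPM, and 76.9% and 88.2% in the second quantification. It led in each library in both quantifications, but the type I start was taken as that of the protein-coding transcript with the highest mean TPM. The lead of type I was thus partly set by this labelling, and the domains behind the starts were not checked. By TPM the alpha and beta exons were nearly level, with beta at 44.0% and 49.7% of the classed TPM in replicates 1 and 2. That was 1.39 and 1.45 TPM for beta, against 1.77 and 1.47 TPM for alpha. In the second quantification beta was 44.1% and 45.6% of the classed TPM. Of the alpha TPM, 1.07 and 0.94 came from Nrg1-214, annotated as a target of nonsense-mediated decay. By counts, which are not corrected for length, beta held 208 and 177 against 115 and 80.1 for alpha. Transcripts without an alpha or beta class held 28.0% and 26.3% of the gene's TPM.

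The leading Nrg1 transcript was the beta form Nrg1-203, at 31.7% and 32.8% of the gene's TPM in replicates 1 and 2. In the second quantification it held 30.6% and 31.7%. Nrg1-203 is the transcript whose start was labelled type I, so its own type follows from that rule. Next came Nrg1-214, a type I alpha transcript annotated as a target of nonsense-mediated decay, with 24.4% and 23.7%. Nrg1-215, a type I transcript with a retained intron, had 18.5% and 15.7%, and the type I alpha transcript Nrg1-213 had 12.5% and 8.84%. Nrg1-204, Nrg1-212 and Nrg1-208 passed 10% in a single library of the second quantification alone, at 11.2%, 11.4% and 10.7%. Transcripts of the protein-coding class held 47.2% and 45.5% of Nrg1's TPM, so about as much was assigned to models of other classes. Among these, Nrg1-214 has an annotated coding length of 861 nt. In the second quantification the protein-coding class held 63.6% and 50.9% in replicates 1 and 2. For Nrg1-214 the posterior SD was 27.7% and 29.3% of the count in replicates 1 and 2.

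**Figure D3:**
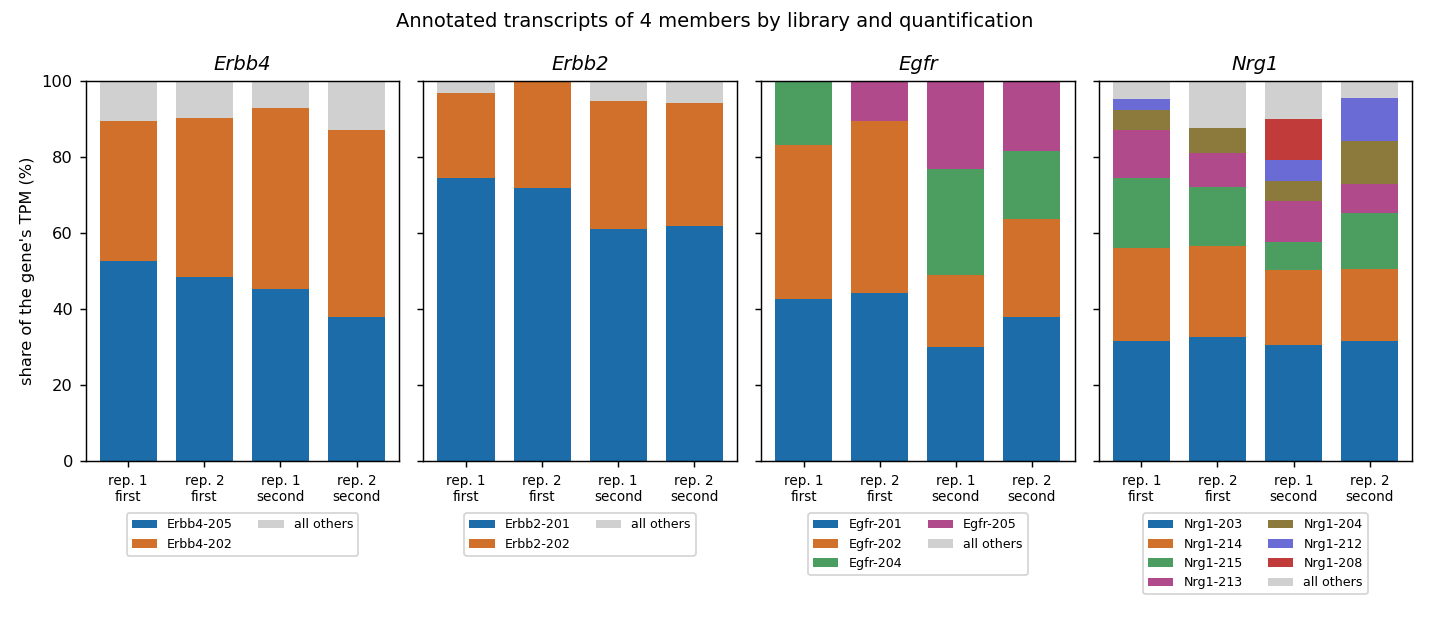
Share of the gene's TPM (vertical axis, %) held by each annotated transcript of Erbb4, Erbb2, Egfr and Nrg1, in stacked bars for replicates 1 and 2 in the first quantification and the same in the second, with transcripts under 10% everywhere in grey. Erbb4-205 and Erbb4-202 share most of Erbb4 in each bar, Erbb2-201 holds 61.1% to 74.4% of Erbb2, and Nrg1-203 holds 30.6% to 32.8% of Nrg1.

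For Egfr, 2 protein-coding transcripts were nearly level. The full-length Egfr-201, with 28 exons and a coding length of 3630 nt, had 1.52 and 1.66 TPM in replicates 1 and 2. Egfr-202, with 16 exons and a coding length of 1965 nt, had 1.44 and 1.70 TPM. It shares 14 exons with Egfr-201 and ends in an exon of 783 nt, before the last 12 exons of the full-length form. In the second quantification Egfr-201 was the higher of the pair, at 2.05 and 2.21 TPM against 1.28 and 1.505 TPM for Egfr-202. Egfr-204 and Egfr-205, short models not annotated as coding, each had a TPM of 0 in 1 library of the first quantification and 17.9% to 27.8% of the gene's TPM in the second. Egfr's larger shift between the quantifications moved with these short models, and their part in it was not tested.

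Erbb2 was led by the protein-coding Erbb2-201, at 8.91 and 8.17 TPM in replicates 1 and 2. Erbb2-202, a transcript of 4431 nt not annotated as coding, held 22.4% and 28.0% of the gene's TPM, and 33.6% and 32.3% in the second quantification. Hbegf-201 held 98.1% and 94.6% of the TPM of Hbegf. Erbb3 has a single annotated transcript. Of the 7 members with more than 1 transcript, 5 had the same leading transcript by mean share in both quantifications, and Erbb4 and Nrg4 did not. Nrg2-203 led Nrg2 at 45% and 77.1%, resting on 15.2 and 19.3 counts, and the other Nrg2 transcripts past 10% rested on at most 1.03 counts in the first quantification. In the second quantification it led by mean share alone, at 34.4% and 32.1%. There Nrg2-202 was higher in replicate 1 (47.3%) and Nrg2-205 in replicate 2 (52.1%). No transcript of Nrg4 annotated as protein-coding had any TPM in either quantification. Its leading model by mean share, Nrg4-212, rested on 2 and 1.24 counts in replicates 1 and 2 and led in neither library. Nrg4-209 was higher in replicate 1 (40.4%) and Nrg4-210 in replicate 2 (41.3%). In the second quantification Nrg4-205 led, at 42.0% and 27.8%.

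The members were also compared between the libraries. Ratios are of TMM-scaled counts, replicate 1 over replicate 2, with exact 95% intervals that cover counting error only and have no replicate check. None of the 6 members that passed the filter on low values differed by 2-fold, and 0.86% of the 13598 genes tested did. At that share, finding none among 6 genes says little about how close they were. Nrg2 and Nrg4 did not pass that filter. Erbb3 had the largest ratio of the 6, at 1.29-fold (1.14 to 1.46), followed by Hbegf at 1.25-fold (1.09 to 1.44), Nrg1 at 1.18-fold (1.01 to 1.37) and Erbb2 at 1.09-fold (1.01 to 1.17). These 4 intervals excluded 1, as did those of 23.7% of all genes tested. Which intervals excluded 1 depended on the scaling, with Erbb3 and Hbegf left under library totals, Erbb3 and Egfr under spike-in scaling, and Nrg1, Erbb3 and Hbegf in the second quantification. Erbb4, at 1.05-fold (0.988 to 1.12), and Egfr, at 0.969-fold (0.859 to 1.09), had intervals that held 1. Over the 6, the median log2 ratio was 0.18, and it was 0.00306 over all genes tested, with quartiles of -0.09 and 0.08. Erbb3, Hbegf, Nrg1 and Erbb2, at log2 ratios of 0.36, 0.33, 0.23 and 0.13, lay above the upper quartile. Erbb4 and Egfr lay between the quartiles. Replicate 1 was higher for 5 of the 6 under TMM and for 3 of the 6 with spike-in scaling, where Erbb2 was at -0.01 and Erbb4 at -0.06 on the log2 scale. Spike-in scaling moved the median of all genes to -0.13.

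**Figure D4:**
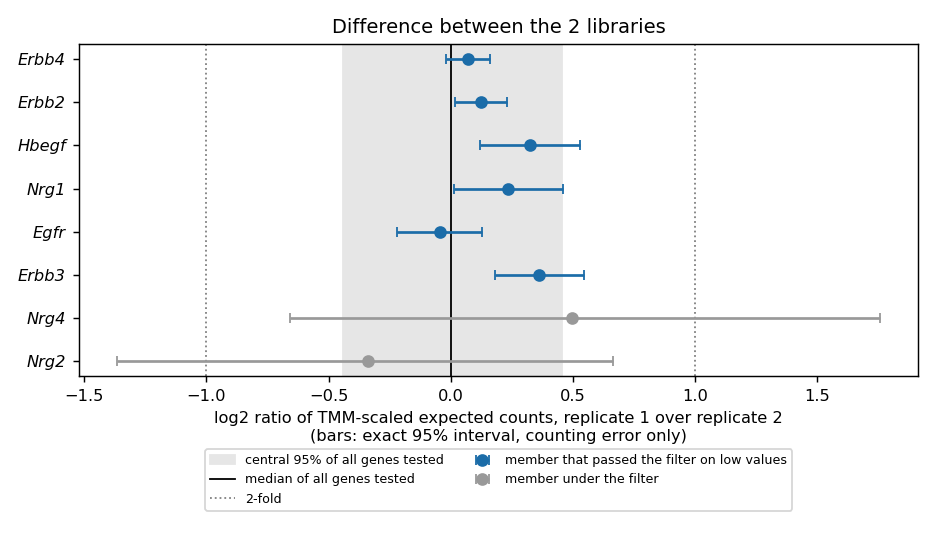
log2 ratio of TMM-scaled counts, replicate 1 over replicate 2 (horizontal axis), for each member, with exact 95% intervals as bars, the median of all genes tested as a black line, their central 95% in grey and 2-fold as dotted lines. The 6 members in blue lie from -0.05 to 0.36, inside the grey band of -0.44 to 0.46, and Nrg4 and Nrg2 in grey have intervals that span both directions.

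Among the marker lists given here, the summed levels of epicardial and endocardial markers were also higher in replicate 1. The 6 epicardial and mesothelial markers summed to 82.9 and 66.8 TPM in replicates 1 and 2, the 4 endocardial markers to 56.1 and 50.01 TPM, and the 7 endothelial markers to 366 and 371 TPM. The endocardial difference rested mostly on Npr3 (20.25 and 13.82 TPM). The epicardial difference rested mostly on Msln (19.18 and 12.8 TPM), Upk3b (13.61 and 7.55 TPM) and Krt19 (9.34 and 4.8 TPM). By TPM the endocardial Cgnl1 and the epicardial Aldh1a2 and Tbx18 were higher in replicate 2. By TMM-scaled counts Aldh1a2 and Tbx18 were nearly level, at log2 ratios of 0.02 and 0.007. All 6 epicardial markers and the 3 endocardial markers tested were higher in replicate 1 on that scale. So were 6 of the 7 endothelial markers, with a median log2 ratio of 0.06 over the 7. Their part in the ratios of the members was not tested. In bulk tissue, fewer cells of a type and less RNA per cell cannot be told apart.

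Other ligands of the EGF family were lower than Hbegf and Nrg1. Of the 7, only Tgfa and Btc, ligands of EGFR of which the second also binds ErbB4, passed 1 TPM in each library or equalled it, and the list summed to 4.95 TPM in replicate 1 and 3.95 TPM in replicate 2. Tgfa had 2.04 and 1.56 TPM, Btc had 1.31 and 1.00 TPM, and Egf, the founding ligand of EGFR, had 1.02 and 0.85 TPM. Egf passed 1 TPM in both libraries by posterior mean (1.43 and 1.33 TPM) and in the second quantification (1.31 and 2.00 TPM). Hbegf exceeded Tgfa by 3.55-fold and 3.90-fold in replicates 1 and 2, and Nrg1 exceeded it by 2.15-fold and 2.53-fold. Areg had 5 counts in each library, Epgn 10 and 9, Ereg 21 and 14, and Nrg3, a neuregulin of the nervous system that binds ErbB4, 1 and 0. A count of 0 allows up to 3 counts at a one-sided 95% level.

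The machinery around the receptors was expressed throughout. Of the 70 pathway genes outside the 8 members, 65 reached a TPM of 1 in both libraries, as did 54.2% of protein-coding genes. The 5 that did not were all ligands, and 1 of them, Egf, passed by posterior mean TPM and in the second quantification. All 13 proteases and regulators of shedding or intramembrane cleavage passed, with a median of 20.1 TPM. They were led by Adam19 at 71.3 and 81.3 TPM in replicates 1 and 2, Aph1a, a gamma-secretase subunit, at 66.5 and 68.3 TPM, and the metalloendopeptidase Nrdc (annotated as Nrd1), an enhancer of HB-EGF shedding, at 43.9 and 42.1 TPM. Adam17, the main sheddase of HB-EGF and of ErbB4 JM-a, had 17.8 and 22.4 TPM.

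All 28 adaptors and downstream kinases passed as well, with a median of 25.6 TPM. Akt1, a kinase downstream of phosphoinositide 3-kinase, was highest at 156 and 168 TPM in replicates 1 and 2, followed by Akt2 at 70.0 and 73.3 TPM and the ERK kinase Map2k2 at 62.5 and 64.7 TPM. The 16 genes of feedback inhibition and receptor turnover had a median of 13.2 TPM and were led by the ubiquitin ligase Nedd4 at 282 and 291 TPM, the chaperone-linked ubiquitin ligase Stub1 at 65.9 and 68.1 TPM and the signalling inhibitor Spry2 at 29.3 and 29.5 TPM. The 6 partners had a median of 52.2 TPM and were led by the chaperones Hsp90ab1 (502 and 497 TPM) and Hsp90aa1 (131 and 133 TPM) and the kinase co-chaperone Cdc37 (64.5 and 71.4 TPM). The median of the 8 members was 3.91 TPM. Of the 65 pathway genes tested between the libraries, none differed by 2-fold, beside 0.86% of the 13598 genes tested. The log2 ratios of the 65 lay from -0.21 to 0.26, and their median was 0.03.

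**Figure D5:**
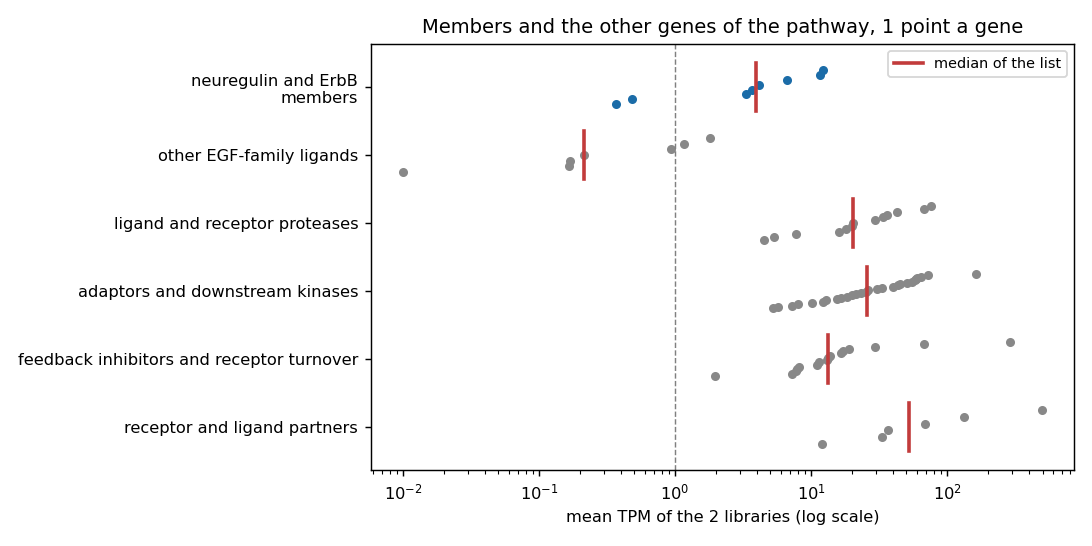
Mean TPM of the 2 libraries (horizontal axis, log scale) for each gene of the family and of 5 pathway lists, with 1 point a gene, red bars at list medians and a dashed line at 1 TPM. The members lie from 0.37 to 12.3 TPM around a median of 3.91, 5 of the 7 other ligands lie under 1 TPM, and every gene of the other 4 lists lies above 1 TPM.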

How the data were processed

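Both libraries come from 1 group, and the labels give them separate biological replicate numbers but a single donor, so that they are separate animals rests on those numbers, and spreads may be partly technical. The deposited files hold, per library, expected counts and TPM for genes and for transcripts, with posterior means, posterior SDs and TPM intervals. A further deposited transcript table, the second quantification, holds estimated counts and TPM. All are on mm10 with annotation M21, per the notes deposited with them. Which programs and versions made them, and the intervals' level, is not given in the sources used here. Per the file headers, gene tables also hold 26248 features named by a number, which took 0% of counts in replicate 1 and 1.85e-05% in replicate 2, and 96 spike-ins, with 0.582% and 0.547%. These stayed out of the library sizes. Second-quantification values were summed per gene, and 86 genes had none.

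The members, gene lists and rules were chosen with earlier results of these data known. Named genes are the 8 members, the 7 other ligands, the 3 highest by mean TPM of each other list with any under 1 TPM, and transcripts with at least 10% of a member's TPM in any table. Adam17 and overlapping genes are named beside results they bear on, after their values were seen. A further cell type marker list is not reported here. Expected counts were rounded, scaled by TMM (edgeR 4.0.16, R 4.3.3) with a prior count of 0.5, and called between libraries where the ratio reached 2-fold, its Clopper-Pearson 95% interval excluded 1, mean TPM reached 1 and both libraries together held 20 counts or more. The rule was tested on simulated data with counting error alone. Transcripts were classed by exons of GENCODE M21, which matched all 55536 gene identifiers. The Nrg1 type I start was taken from the protein-coding transcript of highest mean TPM. Type II was the most upstream protein-coding start, and type III that of the longest coding sequence. The symbol Nrdc was matched through a RefSeq synonym. Alternatives covered the second quantification, posterior means, other scalings (DESeq2 1.42.0 size factors, library totals, spike-ins), thresholds and each library alone. Python 3.11.15, numpy 2.4.6, pandas 2.3.3, scipy 1.17.1 and matplotlib 3.10.9 were used. The F1 strain carries a CAST allele, and whether reads from it were assigned less often on the mm10 reference was not analysed here.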

Additional observations from a re-analysis of the deposited data

How the results depend on the processing

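The counts of members expressed (6), neighbours separated (4), members differing between libraries (0) and pathway genes expressed (65) stayed within 1.5 times their values under every alternative run for them. Which pairs were separated did change. The second quantification separated 5, with Erbb2 over Erbb4 among them, and did not separate Nrg2 and Nrg4. By posterior mean TPM 7 members were expressed, since Nrg4 passed the threshold. The log2 ratio of receptors over ligands, 1.41, was 1.17 by posterior mean TPM and 2.57 by CPM without length correction, where the long receptor transcripts weigh more, and lay from 1.33 to 1.48 with each library alone. In the second quantification 2 of the 7 members with several transcripts, against 4, had a leading transcript with at least 50% of the TPM. The JM-b share of Erbb4 was 43.7% there, against 54.3%. The share of the Nrg1 start labelled type I, that of its leading coding transcript, was 82.6%, against 91.6%. The cause of these changes was not tested. With each library alone the count of members led by such a transcript was 3 for either. The between-library log2 ratio of Erbb2, 0.13, was -0.0082 with spike-in scaling, and that of Erbb4, 0.07, was -0.06, and 30 of 32 alternative values of the members' ratios moved by less than the mean reach of the exact interval to either side. Of 16 member levels under the second quantification or posterior means, 12 were higher by more than 1 SD of the libraries and none was lower. Separation of neighbours could not be given for a library alone, since it needs the spread of both. No paired analysis was possible because the libraries form a single group. Depth limits Nrg2 and Nrg4, at 11 to 20 counts a library.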
